A study of Mus musculus with 4 samples.

Results

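Dazl, Ddx4, Mael, Asz1, Tdrd1, Sycp1, Hormad1, Slc25a31, Stk31 and Brdt are genes of the germ line whose promoters are known to be controlled by DNA methylation. The 10 genes, of 21938 protein-coding genes in GENCODE M21, were chosen by name, and methylation was read at every CpG site listed within 1 kb of the start site (called the promoter here) and, separately, in the rest of the gene body. The data were 4 libraries made by reduced representation bisulfite sequencing (RRBS), in which DNA is cut with MspI at CCGG and unmethylated cytosines are converted by bisulfite. They came from mouse embryonic stem cells (ESCs) of the wild-type line R1 and of the line Tet/Tet, and from neurons differentiated from both lines, and each condition had 1 library. Tet/Tet is a line made from R1 by inserting tet-off constructs at Dnmt1, the gene for the maintenance DNA methyltransferase, and it overexpresses DNMT1. All comparisons of genotype therefore rest on this line. Tet/Tet ESCs were kept in puromycin (1 µg/ml) and neomycin (150 µg/ml), agents that the labels give neither for R1 nor for the Tet/Tet neurons. For neurons, cells of either genotype spent 2 days as embryoid bodies without LIF and then 10 to 15 days in neural medium, and whole dishes were harvested.

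In the mouse, promoters of germ cell genes are among the few CpG-rich promoters that gain dense methylation around implantation and keep it in somatic tissues, where the genes are silent. The methylation is set by the de novo methyltransferases and copied at each division by DNMT1, and it is removed in primordial germ cells before the genes are turned on. Several of these promoters hold the E-box CACGTG or the E2F6 motif GCGGGA, which recruit repressors in non-germ cells.

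Each table gives the percent of reads reporting methylated cytosine at a CpG site, with no read totals, so the depth behind a value is unknown. No condition had a replicate, so no test was possible and the error between cultures is unknown. An SD below is over the CpG sites of a gene, not over cultures. Both ESC libraries were sequenced in 1 project and both neuron libraries in another, so an effect of cell type and an effect of project cannot be told apart. The genotypes were compared within a project. The sequence within 1 kb of the 10 start sites holds 778 CpGs. For ESCs, 376 of them were listed for R1 and 426 for Tet/Tet, and for neurons 577 were listed for R1 and 591 for Tet/Tet. Levels are means over the 362 sites listed in all 4 libraries, and differences in percentage points over the sites listed in both libraries compared. Positions are in bp from the annotated start site, negative upstream, and refer to the C on the forward strand of mm10.

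At all 10 promoters R1 neurons were the most methylated library. In R1, methylation was low to intermediate in ESCs (2.50% to 33.6%, median 16.2%) and high in neurons (57.2% to 91.0%, median 87.7%). In Tet/Tet it was similar to R1 or higher in ESCs (3.93% to 72.0%, median 22.99%) and low in neurons (10.9% to 24.7%, median 19.13%). Where 4 values follow each other without a name below, they are those of R1 and Tet/Tet ESCs and then of R1 and Tet/Tet neurons. R1 neurons had the highest value at 348 of the 362 sites. All 10 promoters were CpG-rich, with an observed over expected CpG ratio of 0.676 to 0.870 in the 250 bp on either side of the start.

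Upstream sequences are shown for 5 members with sites there, to let the methylated CpGs be seen in place. Stk31, with 14 sites in the same stretch, is left out because none of them lay in an MspI fragment of 40 to 220 bp. Tdrd1, with 3 sites there, and Ddx4, with 1, are not shown either. The sequences run 5′ to 3′ along the transcribed strand from position -250 to -1 (RefSeq's GRCm38.p6, that is mm10), and capitals mark the CpGs listed in all 4 libraries. Mael lies at chr1:166238748-166238997 on the minus strand, Sycp1 at chr3:102936101-102936350 on the minus strand, Asz1 at chr6:18109062-18109311 on the minus strand, Hormad1 at chr3:95559427-95559676 on the plus strand and Slc25a31 at chr3:40708605-40708854 on the plus strand.
Mael: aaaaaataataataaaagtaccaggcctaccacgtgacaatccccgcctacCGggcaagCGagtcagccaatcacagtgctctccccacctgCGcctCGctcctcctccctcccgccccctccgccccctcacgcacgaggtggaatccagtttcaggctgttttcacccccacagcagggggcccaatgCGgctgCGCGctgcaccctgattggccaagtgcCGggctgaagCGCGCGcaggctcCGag
Sycp1: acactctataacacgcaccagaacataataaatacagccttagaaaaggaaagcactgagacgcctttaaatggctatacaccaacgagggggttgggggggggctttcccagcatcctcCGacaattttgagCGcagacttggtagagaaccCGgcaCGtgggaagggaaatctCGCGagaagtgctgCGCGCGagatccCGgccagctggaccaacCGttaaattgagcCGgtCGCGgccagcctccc
Asz1: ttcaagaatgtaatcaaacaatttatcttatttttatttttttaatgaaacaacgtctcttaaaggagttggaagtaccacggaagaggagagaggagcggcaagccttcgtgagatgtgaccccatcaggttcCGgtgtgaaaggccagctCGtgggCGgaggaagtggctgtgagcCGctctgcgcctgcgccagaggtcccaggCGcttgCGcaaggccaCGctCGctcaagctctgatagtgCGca
Hormad1: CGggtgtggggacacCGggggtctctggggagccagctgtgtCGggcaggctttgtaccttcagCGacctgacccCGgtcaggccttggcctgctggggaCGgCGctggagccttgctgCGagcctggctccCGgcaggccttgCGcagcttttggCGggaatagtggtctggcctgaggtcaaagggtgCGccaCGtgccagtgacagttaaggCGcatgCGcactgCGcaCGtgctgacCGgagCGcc
Slc25a31: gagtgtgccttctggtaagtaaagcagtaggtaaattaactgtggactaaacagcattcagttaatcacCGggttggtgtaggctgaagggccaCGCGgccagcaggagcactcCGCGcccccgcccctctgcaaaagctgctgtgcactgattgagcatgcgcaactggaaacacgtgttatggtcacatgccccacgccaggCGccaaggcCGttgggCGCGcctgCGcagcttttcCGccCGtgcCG
In Hormad1 all 19 CpGs of the stretch were listed in every library, against 14 of 17 in Sycp1, 13 of 17 in Slc25a31, 12 of 18 in Mael and 9 of 15 in Asz1.

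**Figure D1:**
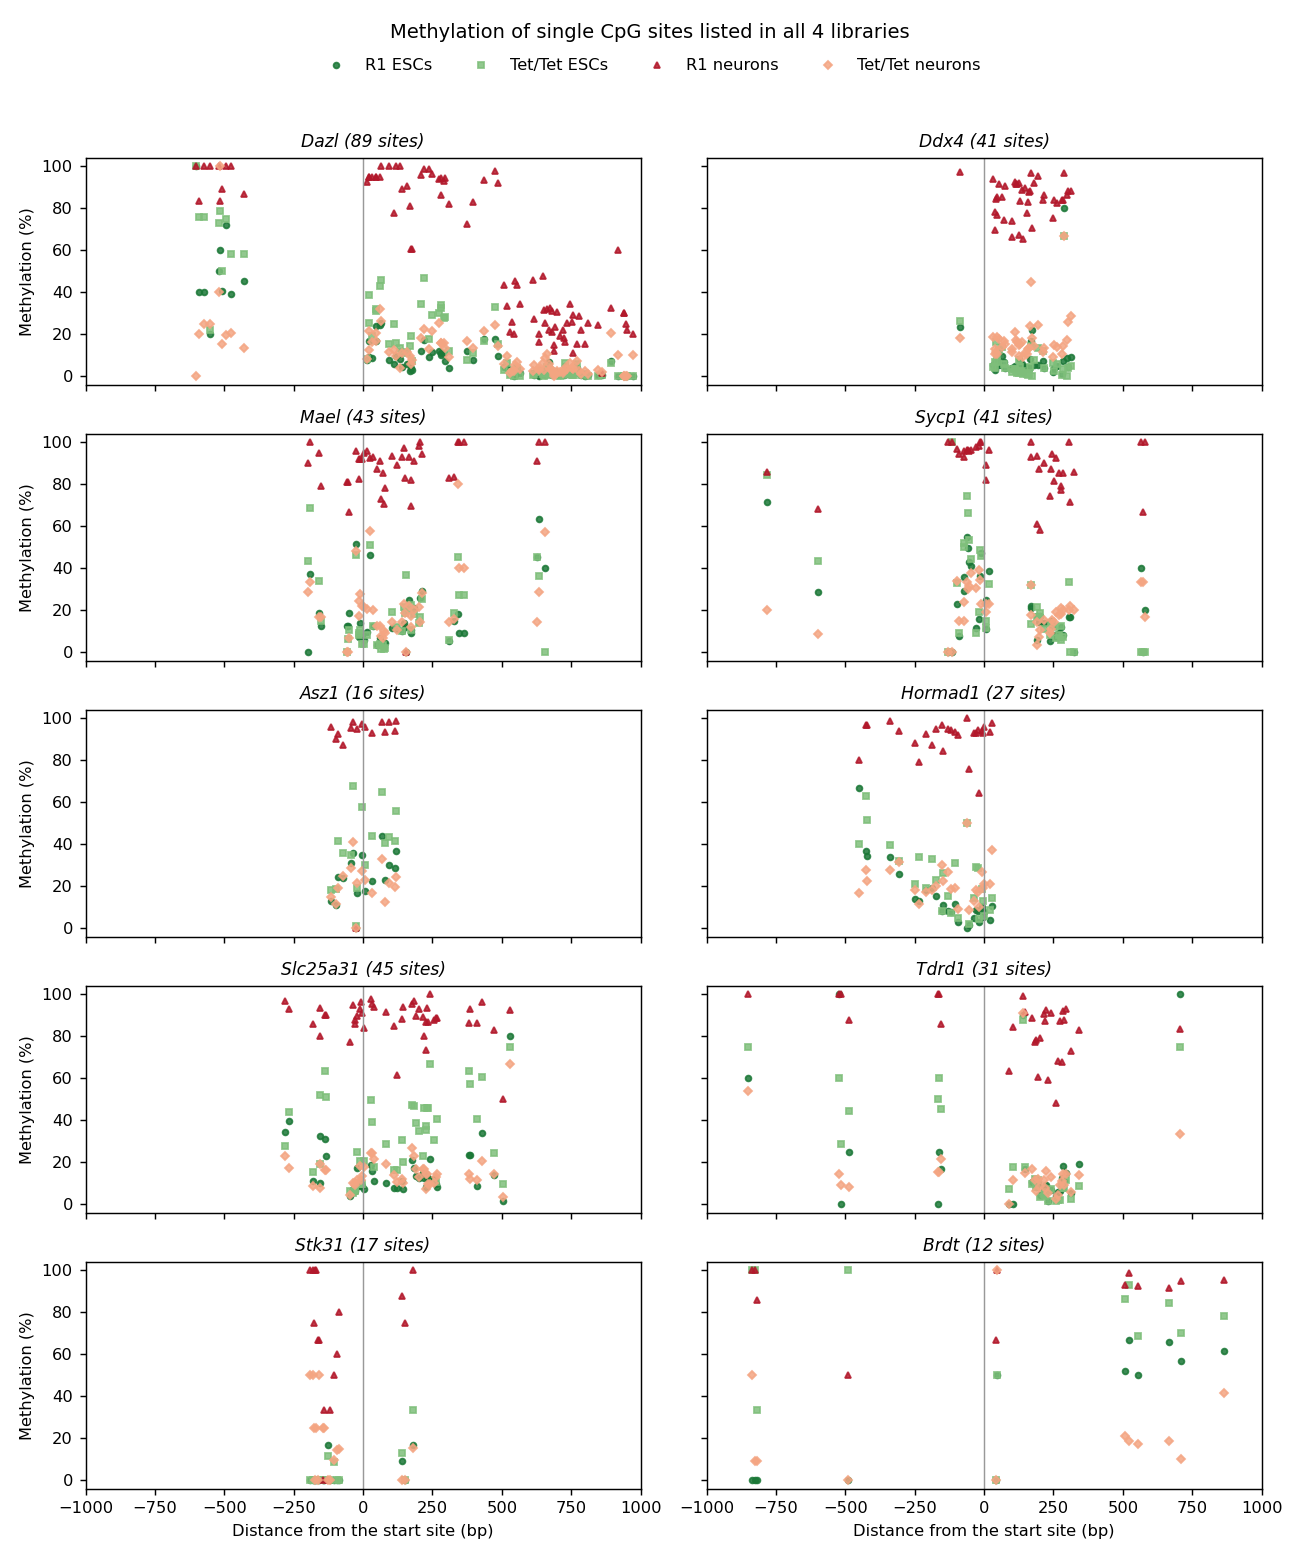
Methylation (percent) of each CpG site listed in all 4 libraries against its distance from the start site (bp), in a panel for each of the 10 genes, with a point for each library. R1 neurons lie above the other libraries at 348 of 362 sites, and in Dazl their points drop from about the top of the panel to a mean of 26.7% beyond 500 bp.

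Dazl encodes an RNA-binding protein needed for the germ cell fate (ENSMUSG00000010592.9, chr17:50279395-50293636, minus strand). Over 89 sites from -601 to +971 its mean was 10.6% ± 17.04 (SD over sites) in R1 and 16.8% ± 22.7 in Tet/Tet ESCs, and 57.2% ± 34.0 in R1 and 10.9% ± 12.8 in Tet/Tet neurons. R1 neurons were the high library, and the large SD came with position. The 20 sites from 0 to +249 averaged 11.2% in R1 and 23.8% in Tet/Tet ESCs, and 90.6% in R1 and 14.6% in Tet/Tet neurons. The 47 sites from +500 on averaged 1.70%, 1.60%, 26.7% and 4.09%. Neighbouring sites bracket the drop: R1 neurons had 92.0% at +488 and 43.4% at +507, both in an intron. Upstream, 7 sites from -601 to -509 were already at 50.1% in R1 and 68.0% in Tet/Tet ESCs, with 93.7% in R1 and 32.2% in Tet/Tet neurons. Dazl thus had 3 zones, an upstream flank methylated in ESCs, a central stretch methylated in R1 neurons, and a downstream stretch that stayed low in ESCs and Tet/Tet neurons and reached intermediate values in R1 neurons.

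Ddx4 encodes the germ cell RNA helicase VASA (ENSMUSG00000021758.14, chr13:112598333-112652475, minus strand). Over 41 sites, of which 29 were exonic, 11 intronic and 1 upstream, it stood at 8.09% ± 12.4 in R1 and 7.22% ± 10.9 in Tet/Tet ESCs, and 84.3% ± 8.70 in R1 and 17.3% ± 10.2 in Tet/Tet neurons. The R1 neuron values, from 65.1% to 97.4%, overlapped those of R1 ESCs, which reached 80%, at a single position. That position was +289, with 80% in R1 and 66.7% in Tet/Tet ESCs, and 96.8% in R1 and 66.7% in Tet/Tet neurons, while its neighbour at +285 had 7.09%, 3.45%, 83.8% and 14.4%. Of the 41 sites, 37 were under 10% in R1 ESCs. Tet/Tet neurons were above both ESC libraries at 36 of the 41 sites.

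Mael, Asz1 and Tdrd1 belong to the piRNA pathway, which silences transposons in male germ cells. Mael encodes maelstrom (ENSMUSG00000040629.8, chr1:166201201-166238747, minus strand), and its 43 sites averaged 16.3% ± 14.6 in R1 and 18.6% ± 16.3 in Tet/Tet ESCs, and 87.2% ± 16.2 in R1 and 21.6% ± 16.0 in Tet/Tet neurons. The 3 libraries other than R1 neurons were close together. A site at -26 and another at +24 stood out from their neighbours in those 3 libraries. At -26 the values were 51.7% in R1 and 46.4% in Tet/Tet ESCs, and 95.6% in R1 and 48.1% in Tet/Tet neurons, against 8.37%, 8.06%, 91.8% and 24.4% at -16. At +24 they were 46.5%, 50.9%, 92.7% and 57.9%, against 9.76%, 8.06%, 95.7% and 20.8% at +16. Both CpGs were thus more methylated than their neighbours in each of the 3 low libraries. At +154 R1 neurons had 0%, the lowest of their 43 values, and at -190 they had 100%.

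Asz1 encodes a germ cell protein with ankyrin repeats, a SAM domain and a leucine zipper that sits on mitochondria (ENSMUSG00000010796.11, chr6:18050964-18109061, minus strand). Its 16 sites, 9 upstream and 7 exonic, averaged 24.7% ± 11.2 in R1 and 38.5% ± 18.2 in Tet/Tet ESCs, and 88.9% ± 23.9 in R1 and 21.3% ± 9.45 in Tet/Tet neurons. At 16 of 16 sites the Tet/Tet value exceeded that of R1 in ESCs. The site at -36, for example, had 35.9% in R1 and 67.8% in Tet/Tet ESCs, and 98.2% in R1 and 41.1% in Tet/Tet neurons. The site at -26, only a few bases away, had 0%, 0.985%, 0% and 0%, whereas the other 15 of the 16 sites had at least 87.2% in R1 neurons. Without a read total it cannot be said how well that site was measured.

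Tdrd1 encodes a Tudor protein that binds PIWI proteins (ENSMUSG00000025081.13, chr19:56826209-56870012, plus strand). Its 31 sites averaged 19.6% ± 28.1 in R1 and 22.3% ± 25.7 in Tet/Tet ESCs, and 83.9% ± 13.6 in R1 and 15.6% ± 17.01 in Tet/Tet neurons. The wide spread in ESCs came from few sites. The 9 sites from +250 to +499 averaged 10.8% in R1 and 5.87% in Tet/Tet ESCs, and 77.8% in R1 and 9.44% in Tet/Tet neurons. The exonic site at +139 was methylated in every library, at 90%, 87.5%, 99.3% and 90.9%, next to 16.9%, 17.9%, 91.7% and 14.9% at +147.

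Sycp1 and Hormad1 act on meiotic chromosomes. Sycp1 encodes the transverse filament of the synaptonemal complex (ENSMUSG00000027855.13, chr3:102818499-102936100, minus strand). Its 41 sites averaged 20.99% ± 16.7 in R1 and 25.5% ± 24.8 in Tet/Tet ESCs, and 89.0% ± 11.4 in R1 and 20.4% ± 9.98 in Tet/Tet neurons. In ESCs methylation was higher upstream of the start than downstream. The 2 sites at -784 and -599 averaged 50.2% in R1 and 63.9% in Tet/Tet ESCs, and 76.9% in R1 and 14.5% in Tet/Tet neurons. The 14 sites from -250 to -1, which the sequence above shows in capitals, averaged 28.2% in R1 and 43.3% in Tet/Tet ESCs, and 97.2% in R1 and 24.9% in Tet/Tet neurons. The 9 sites from +250 to +499 averaged 9.59%, 9.60%, 84.2% and 19.22%. At -60, the highest of the MspI-covered sites in ESCs, the ESC values were 54.8% in R1 and 74.6% in Tet/Tet, and the neuron values 96.3% and 33.7%.

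Hormad1 encodes a HORMA domain protein of the unsynapsed chromosome axis (ENSMUSG00000028109.14, chr3:95559677-95587671, plus strand). Its 27 sites, 25 of them upstream, averaged 14.5% ± 14.4 in R1 and 23.7% ± 15.9 in Tet/Tet ESCs, and 91.0% ± 7.99 in R1 and 21.5% ± 8.96 in Tet/Tet neurons. R1 ESCs declined towards the start, from 39.5% over the 5 sites at -450 to -307 to 8.98% over the 20 sites from -250 to -1. Tet/Tet ESCs declined from 45.3% to 19.5% over the same stretches. In R1 neurons the corresponding means were 93.2% and 90.05%, and in Tet/Tet neurons 25.1% and 19.8%, so neither neuron library had a step of the size seen in ESCs.

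Slc25a31 encodes the ADP/ATP carrier of the male germ line (ENSMUSG00000069041.8, chr3:40708855-40726096, plus strand). Its 45 sites averaged 16.1% ± 13.1 in R1 and 32.9% ± 18.7 in Tet/Tet ESCs, and 88.2% ± 9.06 in R1 and 15.6% ± 9.42 in Tet/Tet neurons. Tet/Tet ESCs exceeded R1 ESCs at 40 of 45 sites, and the excess was larger downstream of the start than upstream. The 13 sites from -250 to -1 had 13.7% in R1 and 22.4% in Tet/Tet ESCs, the 20 sites from 0 to +249 had 12.9% and 35.3%, and the 8 sites from +250 to +499 had 16.7% and 41.0%. At +240, in an exon, the 4 libraries gave 21.4%, 66.7%, 100% and 9.76%. Over the promoter as a whole, Tet/Tet neurons (15.6%) stood next to R1 ESCs (16.1%) and under the Tet/Tet ESCs they were derived from.

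Stk31 encodes a testis protein with Tudor and kinase domains (ENSMUSG00000023403.14, chr6:49395604-49469501, plus strand). Its 17 sites averaged 2.50% ± 5.77 in R1 and 3.93% ± 8.78 in Tet/Tet ESCs, and 66.3% ± 33.3 in R1 and 17.9% ± 18.2 in Tet/Tet neurons. Over the sites listed in all 4 libraries it was the least methylated member in both ESC libraries, with a value of 0% at the median site in each. Over the library's own sites, Tet/Tet ESCs had 15.3% in Stk31 (24 sites) and 6.43% in Ddx4 (46 sites). None of the 17 sites lay in an MspI fragment of 40 to 220 bp. The values of the neuron libraries came in coarse steps (0%, 25%, 33.3%, 50%), and how many reads lie behind these values is unknown.

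Brdt encodes the testis bromodomain protein that binds acetylated histones (ENSMUSG00000029279.15, chr5:107331159-107387058, plus strand). Only 12 of the 61 CpGs in its window were listed in all 4 libraries. They averaged 33.6% ± 30.1 in R1 and 72.0% ± 30.7 in Tet/Tet ESCs, and 89.0% ± 15.3 in R1 and 24.7% ± 28.0 in Tet/Tet neurons. The 6 intronic sites from +507 to +865 averaged 58.8%, 80.1%, 94.2% and 21.3%, and Tet/Tet ESCs exceeded R1 ESCs at each of them. The 4 upstream sites, from -836 to -491, were at 0% in R1 ESCs and between 33.3% and 100% in Tet/Tet ESCs. None lay in an MspI fragment of the size range given above, and the reads behind these coarse values are unknown. Nearer the start, every site listed for Tet/Tet ESCs from -55 to +43 had 0%. Of these only +43 was listed for R1 ESCs, also at 0%. Further on, Tet/Tet ESCs had 50% at +47, 100% at +57 and +64, and 0% at +75. Over the sites listed in all 4 libraries, Brdt was the member in which Tet/Tet ESCs came nearest to R1 neurons. That mean of 72.0% rested mainly on sites away from the start.

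**Figure D2:**
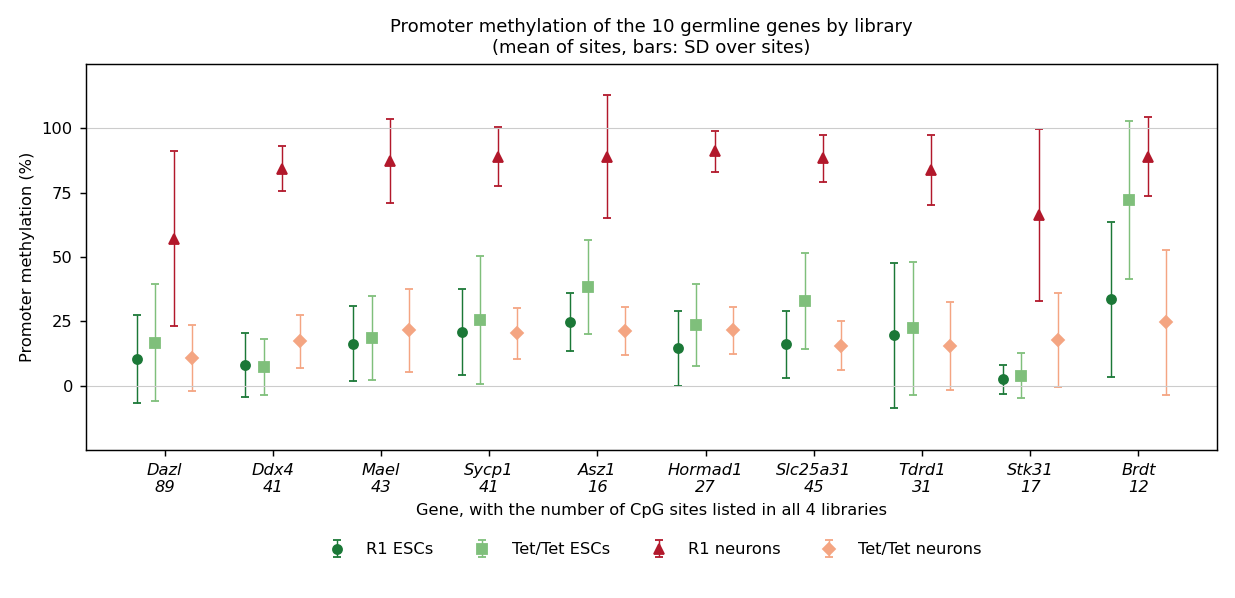
Mean promoter methylation (percent) of each of the 10 genes in the 4 libraries, over CpG sites listed in all 4 (number under each gene), with bars giving the SD over sites. R1 neurons stand between 57.2% and 91.0%, while Tet/Tet neurons stand between 10.9% and 24.7%.

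The comparison of R1 neurons with R1 ESCs asked how these promoters differ between the wild-type cell types. All 10 promoters were higher in R1 neurons by at least 10 points, by 46.6 points in Dazl to 76.4 points in Hormad1, with a median of 66.1 points. Of all protein-coding promoters with at least 5 shared sites, 27.4% were higher by that much, and of the CpG-rich ones 12.3%. None of the members was lower by 10 points, whereas 0.255% of all and 0.205% of the CpG-rich ones were. Over the members, 362 of 369 shared sites were higher in R1 neurons, 2 were lower and 5 were equal. The median difference over all promoters was 2.73 points. The difference at Dazl depended on its downstream zone, since with only 500 bp on either side it was 75.5 points.

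The comparison of Tet/Tet with R1 neurons gave the opposite direction. All 10 promoters were lower in Tet/Tet neurons, with differences from -46.1 points in Dazl to -74.9 points in Brdt (median -68.2), and 495 of 529 shared sites were lower. Promoters lower by at least 10 points made up 36.9% of all those compared and 15.9% of the CpG-rich ones, and the median over all promoters was -5.00. Most promoters could not fall that far. Of 11466 with at least 5 sites in all 4 libraries, 32.3% were at 10% or more in R1 neurons, and 17.7% of the CpG-rich ones. Those at 50% or more numbered 1447 in R1 and 4 in Tet/Tet neurons, and 160 and 0 among the CpG-rich ones. The lower level in Tet/Tet neurons was thus not particular to the members. None of the members was higher by 10 points, whereas 0.116% of all promoters and 0.0362% of the CpG-rich ones were. Both of these comparisons use the R1 neuron library, so they are not independent of each other. In Dazl the difference was -72.4 points with 500 bp on either side, and with only the sites listed in all 4 libraries that of Stk31 was -48.4 and that of Brdt -64.3.

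Between Tet/Tet and R1 ESCs the differences were smaller and mostly upward. Brdt was 40.1 points higher in Tet/Tet ESCs over 14 shared sites, Slc25a31 16.9 points higher over 45 and Asz1 13.8 points higher over 16. No member was lower by 10 points. These 3 of 10 compare with 2.6% of all promoters higher by at least 10 points and 0.401% of the CpG-rich ones, and with 1.3% and 0.293% lower. Among the other 7, Hormad1 differed by 9.18 points with 23 of 27 sites higher, Dazl by 6.21, Sycp1 by 4.52, Tdrd1 by 2.70, Mael by 2.28, Stk31 by 1.44 and Ddx4 by -0.88. The median of the 10 was 5.36 points, against 0.236 over all promoters. These backgrounds differ from the members in their level in R1 ESCs. There 8 of the 10 members were at 10% or more, against 12.3% of all promoters and 2.36% of the CpG-rich ones with at least 5 sites in all 4 libraries. The size at Brdt rested on the sites used, as it was 20.98 points over each library's own sites and 22.2 points over sites in MspI fragments of 40 to 220 bp. Dazl reached 12.4 points with 500 bp on either side, where its low downstream zone was left out.

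Between Tet/Tet neurons and Tet/Tet ESCs, the same 3 genes were lower in neurons by at least 10 points, Brdt by 34.9, Slc25a31 by 18.7 and Asz1 by 18.4 points, and no member was higher by that much. Promoters lower by at least 10 points made up 10.2% of all and 1.2% of the CpG-rich ones, and those higher 0.972% and 0.472%. Ddx4 stood at the other end, 9.21 points higher in Tet/Tet neurons with 37 of 45 sites higher, and 10.1 points higher over sites listed in all 4 libraries. Stk31 turned its sign with the sites used, at -2.61 points over 24 shared sites and 14.0 points over the 17 sites listed in all 4. Tdrd1, at -8.64 points, reached -20.1 with means of 100 bp stretches and 3.53 over MspI fragments of 40 to 220 bp. At Brdt the difference was -5.0 points with 500 bp on either side. This comparison shares a Tet/Tet library with each of the 2 before it.

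**Figure D3:**
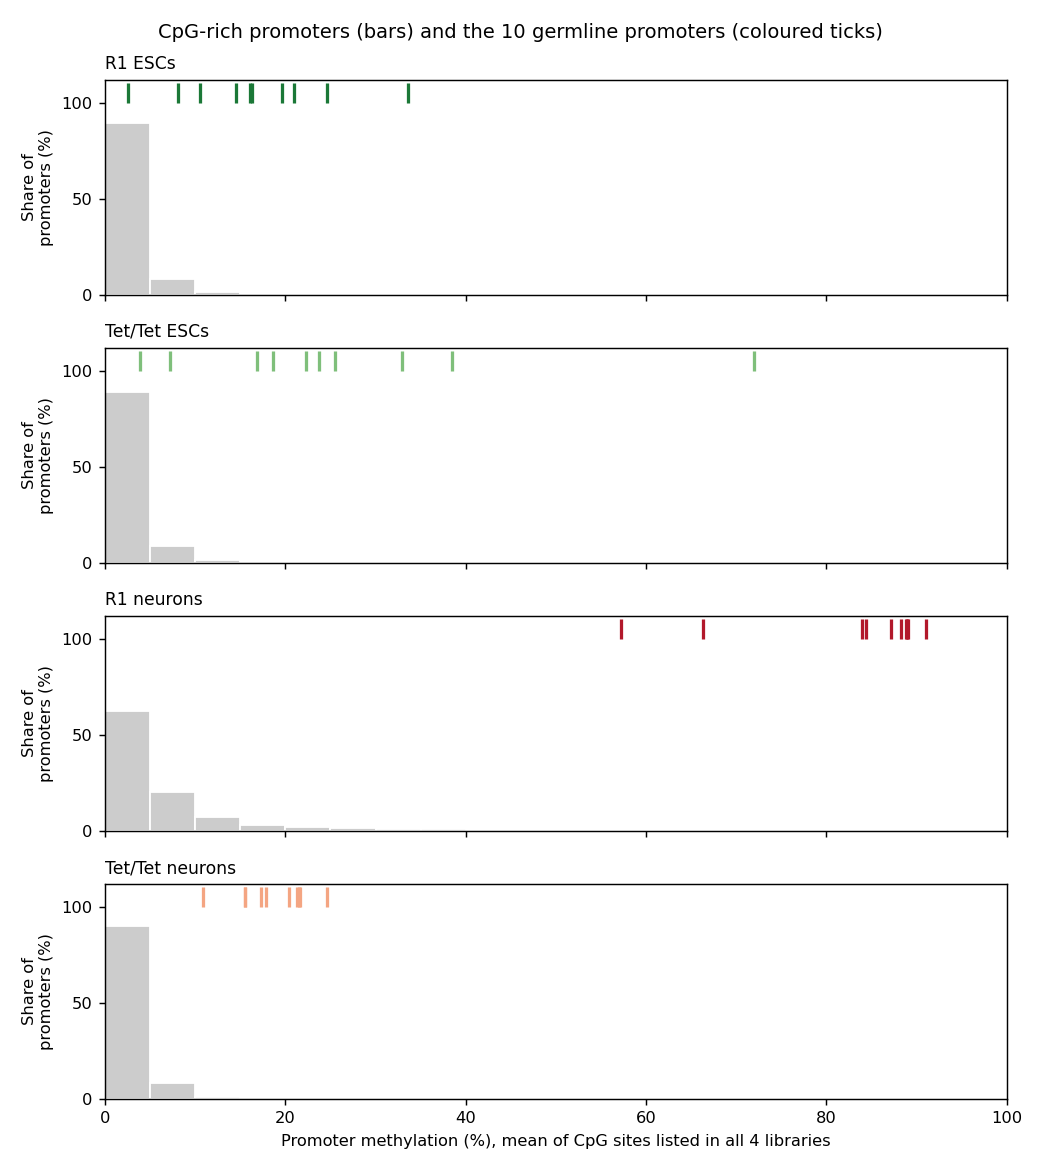
Share (percent) of 8177 CpG-rich promoters in steps of 5 points of methylation, as grey bars, with coloured ticks at the levels of the 10 germline promoters, in a panel for each library. In R1 neurons the ticks lie at 57.2% or above, where 1.96% of the CpG-rich promoters reached 50%.

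Among 8177 CpG-rich promoters with at least 5 sites in all 4 libraries, the medians were 2.15% in R1 and 2.39% in Tet/Tet ESCs, and 3.77% in R1 and 2.46% in Tet/Tet neurons. In R1 neurons 160 of them (1.96%) had 50% or more, the 10 members included. In R1 ESCs, 8 of the 10 members but 2.36% of the CpG-rich promoters were at 10% or more, and the 2 members under 10% were Ddx4 and Stk31. The level of Stk31 was above that of 60.1% of the CpG-rich promoters in R1 ESCs, and that of Ddx4 above 96.2%. In Tet/Tet neurons all 10 members were at 10% or more, against 1.76%. The level in Tet/Tet neurons as a share of that in R1 neurons was 17.6% in Slc25a31 to 27.7% in Brdt, with a median of 23.3%. For the 160 CpG-rich promoters the median share was 16.0%, with quartiles of 11.4% and 20.2%. The 4 members with a share under 22% were Slc25a31, Tdrd1, Dazl and Ddx4, at 17.6%, 18.6%, 19.08% and 20.5%.

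**Figure D4:**
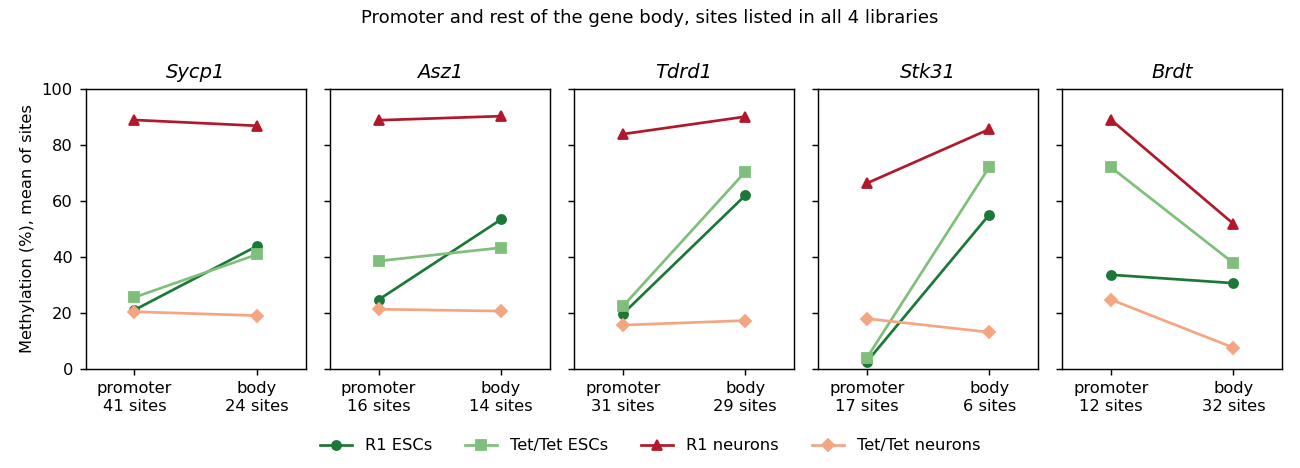
Mean methylation (percent) of the promoter and of the rest of the gene body in the 4 libraries, for the 5 genes with at least 5 body sites listed in all 4. In R1 ESCs the body stands above the promoter in Sycp1, Asz1, Tdrd1 and Stk31, and in Brdt it stands slightly below.

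Outside the 1 kb window the gene bodies behaved differently in ESCs. In R1 ESCs the body of Tdrd1 averaged 61.9% ± 25.9 over 29 sites, against 19.6% at its promoter, and that of Stk31 averaged 55.1% ± 17.2 over 6 sites, against 2.50%. Asz1 had 53.4% ± 23.2 over 14 sites and Sycp1 43.8% ± 37.0 over 24. Brdt had 30.6% ± 36.8 over 32 sites, close to its promoter. In R1 neurons the bodies of Sycp1, Asz1, Tdrd1 and Stk31 reached 85.66% to 90.3%, and that of Brdt 51.8% ± 49.0, an SD that shows sites near 0% beside sites near 100%. In Tet/Tet neurons the 5 bodies had 7.502% to 20.6%. Over all protein-coding genes with at least 5 such sites, the median in R1 ESCs was 38.7% in bodies and 2.51% at promoters. The median of all bodies was 88.5% in R1 and 15.0% in Tet/Tet neurons. A body above the promoter in ESCs was thus not particular to the members.

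Of the gene bodies with at least 5 shared sites, 8 of 8 were lower in Tet/Tet neurons than in R1 neurons by at least 10 points, with a median of -75.1 points, and 98.3% of all gene bodies were lower by that much and 0.0143% higher. In R1, 6 of 6 were higher in neurons than in ESCs (median 27.7 points, with 94.8% of all higher and 0.0328% lower), although Ddx4 with 10.7 points over 7 sites was at 0 when medians over sites were taken. In Tet/Tet, 6 of 6 were lower in neurons (median -34.4 points, with 80.9% of all lower and 0.655% higher). Between Tet/Tet and R1 ESCs, 0 of 5 differed by 10 points, with differences from -7.97 in Asz1 to 9.32 in Brdt, where 11.7% of all gene bodies were higher and 4.62% lower. At the gene bodies the members' shares are thus near the background. Bodies with few sites gave extreme values. At the 6 shared body sites of Slc25a31, R1 neurons had 100% and Tet/Tet neurons 0%. The 20 shared body sites of Hormad1 averaged 97.5% in R1 and 15.8% in Tet/Tet neurons, and the 25 of Ddx4 averaged 91.7% and 13.4%.

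Both motifs were sought in the members from -250 to +250. The palindrome CACGTG was present in 9 of 10 members (not in Dazl), in 10 places, against 10.4% of all 21938 promoters and 14.8% of the CpG-rich ones. GCGGGA, on either strand, was present in 5 of 10 members, against 36.2% and 61.6%. A match of letters is a description and not a bound site. The CpG of CACGTG was listed in all 4 libraries at 5 places in 4 genes. In Ddx4 (+139) it had 2.16% in R1 and 1.01% in Tet/Tet ESCs, and 65.1% in R1 and 8.97% in Tet/Tet neurons, where the promoter's median site had 5.21%, 3.96%, 85.4% and 15.0%. None of the other 40 sites of Ddx4 listed in all 4 libraries was lower in either neuron library. Hormad1 holds the motif at -55 and at -18, in the sequence printed above. At -18 it had 3.11%, 4.56%, 64.4% and 10.1%, and at -55 it had 1.57%, 1.84%, 76.0% and 8.59%, against 10.3%, 21.2%, 93.4% and 19.4% at the median site, and these were the 2 lowest of its 27 sites in R1 neurons. Stk31 (-118) had 0%, 0%, 33.3% and 0%. In Sycp1 (-91) the motif's CpG had 7.88%, 9.23%, 94.3% and 15.1%, against 16.7%, 14.7%, 93.1% and 20% at the median site, so it was among the lower sites in ESCs and not in R1 neurons. In Ddx4 and Hormad1 the motif's CpG was thus lower than most sites listed in all 4 libraries, which was not tested.

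The other germline genes were taken from a list of 52 in 3 groups. In the piRNA pathway, 11 of 14 promoters with at least 5 sites in all 4 libraries had 50% or more in R1 neurons, in the group of other germline genes (regulators and testis genes) 5 of 5 had, and among meiotic chromosome genes 4 of 11. Of all protein-coding promoters with as many sites 12.6% had, and of the CpG-rich ones 1.96%. Across the list, 33 of 36 were higher in R1 neurons than in R1 ESCs by at least 10 points, 37 of 39 were lower in Tet/Tet than in R1 neurons, and 8 of 36 were higher and 0 lower in Tet/Tet than in R1 ESCs. Between Tet/Tet neurons and Tet/Tet ESCs, 11 of 35 were lower and 4 higher. The backgrounds are those given above for the members.

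**Figure D5:**
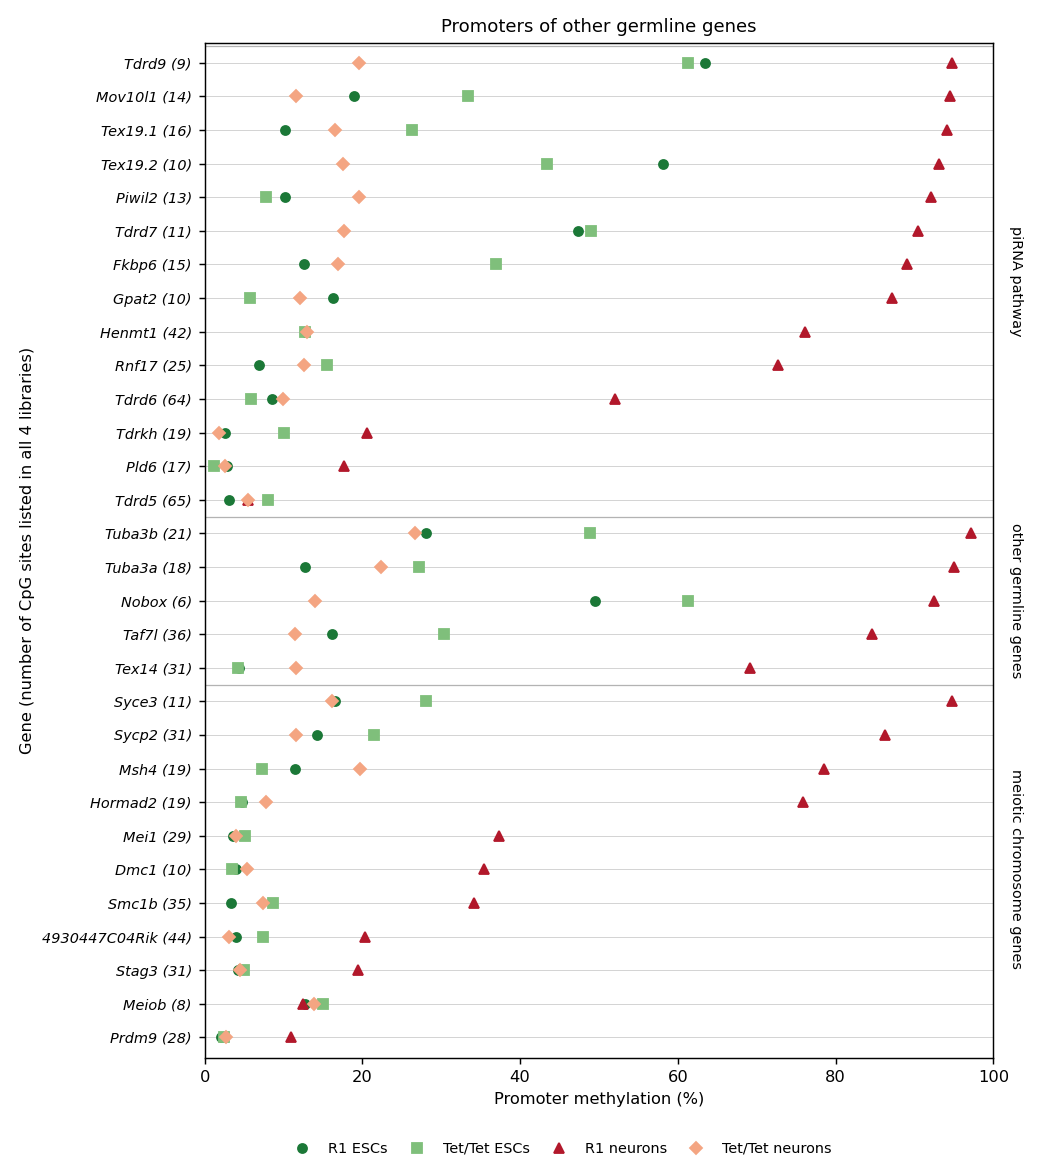
Mean promoter methylation (percent) in the 4 libraries of the 30 other germline genes with at least 5 sites listed in all 4 (number in brackets), grouped by list and ordered by R1 neurons. In 20 of the 30 genes R1 neurons stand at 50% or more, and the genes with low values in R1 neurons are low in the other libraries too.

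The meiotic genes Prdm9, Stag3, Mei1, Smc1b and Dmc1 had 10.9% to 37.3% in R1 neurons over sites listed in all 4 libraries, under Sycp1 and Hormad1. Over the own sites of R1 neurons, Dmc1 had 54.8% (45 sites) and Mei1 49.6% (44 sites). Among the meiotic genes of the list with at least 5 sites in all 4 libraries, 4 had 50% or more over these sites. They were Syce3 (94.7%), Sycp2 (86.3%), Msh4 (78.5%) and Hormad2 (75.9%). Rec8, Syce1, Tex12, Sycp3, Meioc, Stra8 and Spo11 had fewer such sites. Over the own sites of R1 neurons, each of these was also at 50% or more. The 10 list genes under 50% in R1 neurons had medians of 3.46% in R1 and 6.26% in Tet/Tet ESCs, and 19.9% in R1 and 4.24% in Tet/Tet neurons. The 20 at or above 50% had 13.5%, 26.8%, 89.8% and 15.1%. Among the list genes with at least 5 sites in all 4 libraries, the split went with CpG content. Of these 20 promoters 7 were CpG-rich, against 9 of the 10 under 50%, whereas all 10 members were CpG-rich. Over the own sites of R1 neurons, the CpG-rich Dmc1 and Tex14 changed sides (54.8% and 38.0%). The CpG-rich Rec8, Syce1, Tex12 and Sycp3, at 83.7% or more over own sites, and Syce2 and Msh5, under 50%, were not counted. By the size of the differences, the list was led in ESCs by Fkbp6, a piRNA pathway gene (38.3% in Tet/Tet against 11.8% in R1 over 16 sites), and Tuba3b, a testis tubulin (48.8% against 28.0% over 21). No list gene was 10 points lower there, and the nearest were Gpat2 at 5.20% against 14.8% and Tex19.2 at 48.6% against 52.9%. In neurons the lowest differences were those of Nobox, an oocyte homeobox gene (8.42% in Tet/Tet against 91.8% in R1 over 10 sites), and Tdrd12 (4.17% against 87.5% over 8), while Msh5 (10.0% against 15.3%) and Tdrd5 (4.40% against 12.8%) were the 2 that stayed within 10 points. Between R1 neurons and R1 ESCs, Dnd1 (95.6% against 0% over 5 sites) and Syce1 (96.9% over 8 sites in R1 neurons) differed most, and Meiob (22.2% against 22.4%) and Tdrd5 (5.44% against 3.07%) least. Between Tet/Tet neurons and Tet/Tet ESCs, Tdrd9 (17.6% against 65.2%) and Nobox (9.35% against 52.0%) were lower, and Rec8 (22.6% against 4.76%) and Msh5 (15.6% against 0%) higher, the last with 16 sites.

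The protein-coding genes whose 4 promoter levels lay nearest to the members' medians, among 10316 with at least 10 sites in all 4 libraries, were Rhox9 (14.7%, 23.2%, 91.7% and 19.16% over 21 sites, 4.29 points away by Euclidean distance), Cmtm5 (18.6%, 24.2%, 88.0% and 15.4% over 14 sites, 4.59 points away) and Rhox13 (15.6%, 19.7%, 91.8% and 18.97% over 31 sites, 5.28 points away). Rhox9 and Rhox13 are homeobox genes of the reproductive tract cluster on the X chromosome. The likeness is over 4 libraries only.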

How the data were processed

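Methylation was measured by RRBS in ESCs and neurons of the R1 and Tet/Tet lines (1 library each). Per the labels and methods, the authors trimmed reads (Trim Galore 0.6.4), checked them (FastQC 0.11.8), mapped them to mm10 (Bismark 0.19.0) and called CpGs (MethylDackel 0.3.0). The deposited values are the percent of reads methylated per CpG, 0 to 100, not normalized between libraries and without read totals, so the depth per site is unknown and sites with few reads weigh as much as others. The study's Fisher test needs read counts and could not be applied to percentages.

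Sites were placed on GRCm38.p6 and GENCODE M21 in Python 3.11.15 (numpy 2.4.6, pandas 2.3.3, matplotlib 3.10.9), and all 6223978 sites listed on chromosomes 1 to 19, X and Y were CpGs of the forward strand. Each site had the same weight in the mean of a gene, and a difference was counted from 10 points on, over at least 5 shared sites. A promoter was CpG-rich with an observed over expected CpG ratio of at least 0.6 and a GC content of at least 50% within 250 bp of the start. The calculations were tested on simulated data.

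The text names all 10 members, at most 2 list genes per comparison and direction with the largest difference (at least 5 shared sites), and the 3 genes nearest to the members' medians. Prdm9, Stag3, Mei1, Smc1b, Dmc1, Syce3, Sycp2, Msh4, Hormad2, Meioc, Tex12, Sycp3, Stra8, Spo11, Syce2, Tex14, Tex15 and Dpep3 were added after their values were seen. The members and lists were chosen with earlier results of these data known. Alternatives were the window, start site, sites used, average, size of difference and minimum of sites. For Tet/Tet neurons no site was listed on chromosomes 8 and 9 and parts of 7 and 10, so these were not analysed here. No member lies there, but some list genes do, such as Sycp3 and Syce1.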

Additional observations from a re-analysis of the deposited data

Results flagged for a closer look

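At 3 promoters Tet/Tet and R1 differed with opposite signs in ESCs and in neurons, each by at least 10 points. All 10 members were lower by that much in Tet/Tet neurons, so these 3 are the members that were higher in Tet/Tet ESCs. Of all promoters compared, 2.6% were higher in Tet/Tet ESCs and 36.9% lower in Tet/Tet neurons. The share of promoters with both was not counted. The difference in neurons minus that in ESCs was -81.9 points at Asz1 (13.8 in ESCs and -68.0 in neurons), -89.5 points at Slc25a31 (16.9 and -72.6) and -115 points at Brdt (40.1 and -74.9). With 1 library per condition this difference was not tested, and the cell types were sequenced in different projects.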

How the results depend on the processing

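No paired analysis was possible because each condition had 1 library and no replicate numbers. The 11 alternatives left 157 of 176 counts within 1.5 times of the value given. The 10 promoters higher in R1 neurons than in R1 ESCs and the 10 lower in Tet/Tet than in R1 neurons remained 10 in each setting, except 9 in either over MspI fragments, where 1 member had too few sites. Promoters on which Tet/Tet ESCs exceeded R1 ESCs numbered 5 over each library's own sites and 1 at 25 points. Promoters higher in Tet/Tet neurons than in Tet/Tet ESCs numbered 2 over sites listed in all 4 libraries, 1 over own sites and 1 with medians, and those lower numbered 1 at 25 points. Gene bodies on which Tet/Tet ESCs exceeded R1 ESCs numbered 1 with 500 bp on either side, 1 over sites in all 4, 3 over own sites, 1 over MspI fragments, 3 with medians and 1 with 100 bp stretches, and those lower numbered 1 over sites in all 4, 1 over own sites and 1 over MspI fragments. Gene bodies lower in Tet/Tet than in R1 neurons numbered 5 over sites in all 4 and 3 over MspI fragments, those higher in R1 neurons than in R1 ESCs 3 over MspI fragments, and those lower in Tet/Tet neurons than in Tet/Tet ESCs 3 over MspI fragments. The settings that restrict sites also leave fewer genes with enough of them; otherwise the cause was not tested. No difference given as at least 10 points with the settings of the report turned its sign in another. The read depth is unknown and limits every single-site value.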

Other observations

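Beside the sites of Asz1 (-26), Ddx4 (+289) and Tdrd1 (+139), an intronic site of Dazl at +862 was low in all 4 libraries (0.781% in R1 and 0.543% in Tet/Tet ESCs, 1.6% in R1 and 1.85% in Tet/Tet neurons) and an intronic site of Slc25a31 at +530 was high in all 4 (80%, 75%, 92.3% and 66.7%). These 5 were the sites of the 362 that stayed under 10% or above 60% throughout. Across the sites of a promoter, R1 and Tet/Tet ESCs ranked the CpGs alike in Asz1 (Pearson r = 0.943, Spearman rho = 0.874, 16 sites) and Dazl (r = 0.928, rho = 0.912, 89 sites), but not in Brdt (r = 0.193, rho = 0.00366, 12 sites). Sites of a promoter share libraries, fragments and base composition, and are not independent.

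Pou5f1, a pluripotency gene, is known to gain promoter methylation on differentiation. Its promoter had 1.90% in R1 and 8.91% in Tet/Tet ESCs, and 36.1% in R1 and 5.44% in Tet/Tet neurons over 15 sites. That of Map2, a neuronal gene, stood at 1.83%, 1.53%, 3.52% and 1.91% over 41 sites. Nanog had only 3 sites in all 4 libraries, with 4.22%, 4.56%, 27.8% and 7.37%, and Zfp42, Tubb3 and Rbfox3 had none. Promoter methylation does not measure expression, and the identity of the neurons was not tested by it.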
